A study of Mus musculus with 9 samples.

Results

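The enzymes and regulators of de novo lipogenesis were followed in the livers of mice with nonalcoholic steatohepatitis (NASH) with or without the transcription factor IRF4 in skeletal muscle. The 10 genes were chosen by symbol: Srebf1, Mlxipl, Acly, Me1, Acaca, Acacb, Fasn, Elovl6, Scd1 and Thrsp. All 10 were found among the 24008 genes of the count table, and all 10 passed the filter on low counts that left 14379 genes for testing. RNA was sequenced from pieces of whole liver, with 3 liver samples in each of 3 groups. The study's reporting summary describes male mice of 8 weeks on a C57BL/6J background; the sex of these animals is not in the labels. All ate a high-fat, high-carbohydrate diet containing cholesterol, with fructose and glucose in the water. The methods give 24 weeks of this diet in one place and 12 in another, and the livers were taken 4 weeks after the virus.

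The Flox group, called WT in the labels, is the control with muscle Irf4 in place. In the F4MKO group, floxed Irf4 was deleted with Myl-Cre, which is directed at skeletal muscle and not at the liver. In the F4MKO + FSTL1 group, such knockout mice also received an AAV8 vector in the gastrocnemius, in which the muscle creatine kinase (MCK) promoter drove Flag-tagged FSTL1, a protein that muscle secretes. By the study's methods, mice without AAV-FSTL1 received AAV-GFP, a vector the labels do not name. The comparisons ask how loss of muscle Irf4, and FSTL1 made in the knockout muscle, moved lipogenic gene expression in the liver.

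De novo lipogenesis turns surplus carbohydrate into fatty acids, and the liver is one of its main sites. Citrate leaves the mitochondrion and is split to acetyl-CoA, which is carboxylated to malonyl-CoA and built into palmitate with reducing power from NADPH. Insulin acts on the pathway through SREBP-1c, a product of Srebf1, and sugars act through ChREBP, the product of Mlxipl. Both factors bind the promoters of most of the enzymes, commonly beside general factors such as NF-Y, which binds CCAAT boxes, and SP1, which binds GC boxes.

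Of the 10 genes, 4 lie on chromosome 11 of GRCm38 (mm10), the build of the deposited counts. These are Fasn (chr11:120805846-120824547), Acly (chr11:100476353-100528000), Acaca (chr11:84129672-84401651) and Srebf1 (chr11:60199089-60222581). Acaca is on the plus strand and the other 3 are on the minus strand. Promoter windows of the 250 bases before a transcription start, from RefSeq on GRCm38.p6, were matched for 9 of the 10 genes. The windows of Fasn and Acly are shown because these genes had lower RNA in the F4MKO + FSTL1 livers, and a window of Srebf1 because its product acts on both. All 3 are given on the minus strand, 5′ to 3′, ending at the base before the start. Capitals mark a CCAAT box (CCAAT), an E-box (CACGTG), a sterol regulatory element (TCACNCCAC) or a GC box (GGGCGG), each on either strand.
Fasn, chr11:120824548-120824797: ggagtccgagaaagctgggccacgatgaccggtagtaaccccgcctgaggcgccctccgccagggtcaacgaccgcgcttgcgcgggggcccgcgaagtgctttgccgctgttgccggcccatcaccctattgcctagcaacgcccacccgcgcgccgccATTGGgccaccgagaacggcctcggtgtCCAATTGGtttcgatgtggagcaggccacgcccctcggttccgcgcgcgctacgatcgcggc
Acly, chr11:100528001-100528250: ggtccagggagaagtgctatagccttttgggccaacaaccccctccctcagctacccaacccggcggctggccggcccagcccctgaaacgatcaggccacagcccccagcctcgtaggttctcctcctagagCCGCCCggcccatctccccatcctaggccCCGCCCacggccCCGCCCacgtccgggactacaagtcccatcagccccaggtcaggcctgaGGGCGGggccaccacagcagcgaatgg
Srebf1, chr11:60210472-60210721: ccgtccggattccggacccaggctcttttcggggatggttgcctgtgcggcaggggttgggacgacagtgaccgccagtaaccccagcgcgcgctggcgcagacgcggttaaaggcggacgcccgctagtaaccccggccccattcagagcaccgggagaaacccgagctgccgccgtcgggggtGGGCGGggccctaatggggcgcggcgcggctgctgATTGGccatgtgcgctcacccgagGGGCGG

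The Fasn window held 3 CCAAT boxes, of which a pair overlap as CCAATTGG, and no GC box. The Acly window held 4 GC boxes and no CCAAT box. The Srebf1 window, 1 of 3 listed for that gene, held 1 CCAAT box and 2 GC boxes. It lies inside the gene coordinates given above. Of the others, the window before the gene's start held 1 CCAAT box and 0 GC boxes. The remaining window held 0 CCAAT boxes and 2 GC boxes. None of the 3 windows shown held the letters of the E-box or of the sterol regulatory element. Only the letters given above were searched, so variants of these elements were not counted and may be present. Of 32851 mouse promoter windows of this length, 33.8% held a CCAAT box, 32.7% a GC box, 6.02% the E-box and 1.05% the sterol regulatory element. The only match to the sterol regulatory element among the windows of the 10 genes was in a window of Mlxipl, and the only E-box was in its other window. The window listed for Acaca begins far inside the gene and held none of the 4 motifs. These are matches of letters, not measured binding.

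Libraries held 20656976 to 24322984 counts. Levels of a gene between livers are given as CPM, a gene's counts scaled to a common library size, after TMM scaling, with factors from 0.927 to 1.17. The hepatocyte marker Alb stood between 48834 and 75380 CPM, while the muscle markers Acta1 and Ckm each had 1 count over all 9 libraries together. Liver Irf4 had 101 to 132 counts in the Flox and F4MKO livers, and since the deletion is meant for muscle these counts do not test it. In the F4MKO + FSTL1 livers Irf4 had 10, 92 and 116 counts, so F4MKO + FSTL1 liver 1 stood apart.

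On a scale adjusted for transcript length (TPM, a share of length-corrected counts), Scd1 was the most abundant of the 10 genes in all 9 livers. Its product, stearoyl-CoA desaturase 1, makes monounsaturated fatty acids. Its level ranged from 6140 to 12612 TPM, and on average it ranked 12 among all genes with an exon length. Me1, Mlxipl, Thrsp and Srebf1 followed, between 101 and 324 TPM over the 9 livers, and their ranges overlapped. Fasn ranged from 42.1 to 159 TPM and took the rank of 6 in 7 of 9 livers. Acly ranked 7 and Elovl6 ranked 8 in all 9 livers, at 31.1 to 61.8 and 17.3 to 44.3 TPM. The ends of these ranges overlap between livers. Acacb, at 13.9 to 28.6 TPM, and Acaca, at 11.4 to 28.3 TPM, were lowest and exchanged places in 2 livers.

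**Figure D1:**
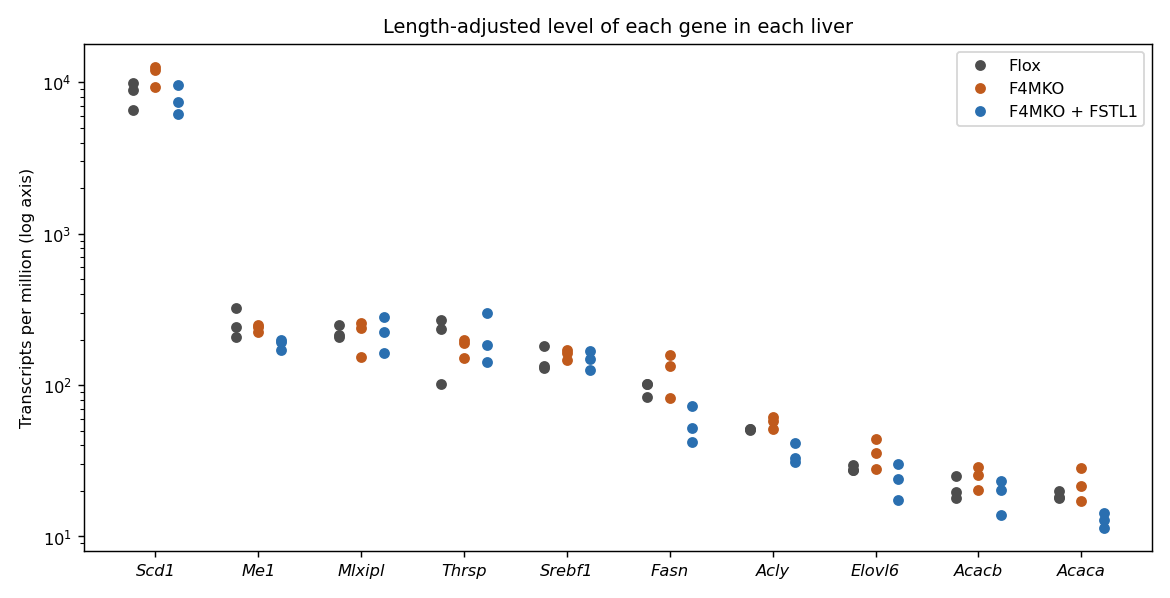
Length-adjusted level (TPM, log axis) of the 10 genes in each liver, 1 point per liver, coloured by group and ordered by mean level. Scd1 lies between 6140 and 12612 TPM and every other gene at or below 324 TPM.

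Loss of IRF4 in muscle was followed by no called change in any of the 10 genes in the liver. A gene was called at a Benjamini-Hochberg adjusted p under 0.05 over all tested genes in edgeR's quasi-likelihood test together with a fold change above 1.5. In F4MKO against Flox this was met by 0 of 10 genes, beside 0.271% of all tested genes. At an unadjusted p under 0.05 there were 0 of 10 members, beside 16.9% of all tested genes. DESeq2 also called 0 of 10, and 338 of all genes (2.23% of those it tested), where edgeR called 39. The median log2 fold change of the 10 genes was 0.02, beside 0.00 for all tested genes, with 5 genes higher and 5 lower. In none of the 10 did the F4MKO livers separate from the Flox livers, beside 21.8% of all tested genes with separate groups.

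FSTL1 in the knockout muscle was accompanied by lower Fasn, Acaca and Acly in the liver. Fasn alone was called when these livers were set against F4MKO, 1 of 10 genes, beside 14.4% of all tested genes called and 11.2% called lower. On the adjusted p alone, at 0.05, 3 of 10 passed, all lower, beside 20.9% of all tested genes in either direction and 13.1% lower. The F4MKO + FSTL1 livers were separate from the F4MKO livers for the same 3 genes, beside 39.0% of all tested genes. The called share of the 10 genes was thus close to the share of all genes. Their median log2 fold change was -0.17, beside 0.01 for all tested genes, with 7 lower and 3 higher. The 3 that lay higher, Srebf1, Mlxipl and Thrsp, are the regulatory members, and none of them passed.

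**Figure D2:**
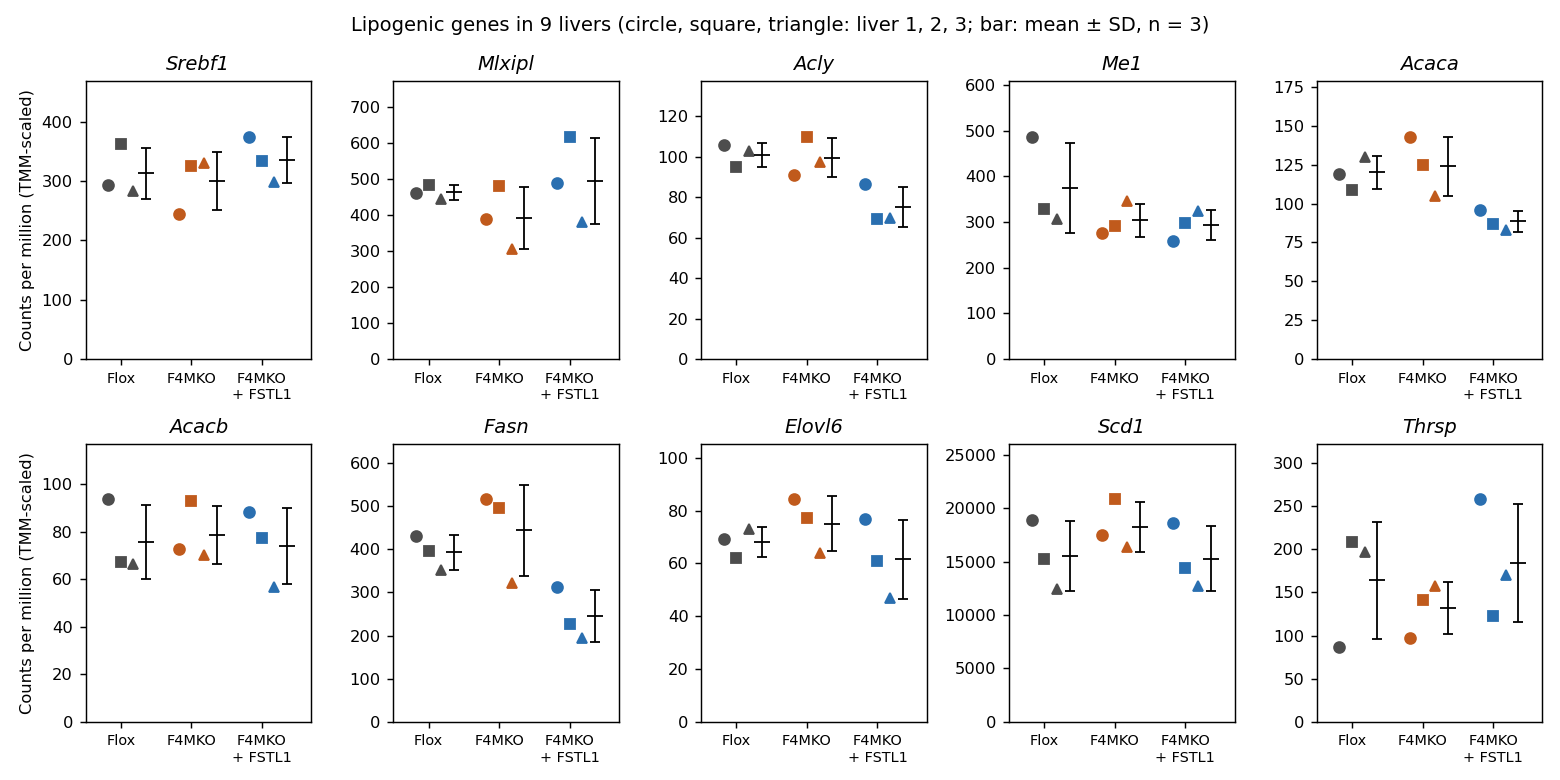
CPM of each gene in each liver (points; circle, square and triangle are livers 1, 2 and 3 of a group) with the group mean ± SD (bars, n = 3); every vertical axis starts at 0. For Fasn, Acaca and Acly all F4MKO + FSTL1 points lie below all Flox and all F4MKO points, and for the other 7 genes the groups overlap.

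Fasn encodes fatty acid synthase, the enzyme that builds palmitate from malonyl-CoA. Its level was 432, 395 and 351 CPM in the Flox livers, 516, 495 and 323 CPM in the F4MKO livers, and 312, 226 and 195 CPM in the F4MKO + FSTL1 livers. Every F4MKO + FSTL1 liver was below every other liver, although its highest value (312 CPM) was close to the lowest F4MKO value (323 CPM). Fasn fell from 444 ± 106 CPM (SD, n = 3) in F4MKO to 245 ± 60.7 CPM (SD, n = 3) in F4MKO + FSTL1. The log2 fold change was -0.86 ± 0.20 (SE), with a 95% interval from -1.31 to -0.42 and an adjusted p of 0.0129 in edgeR, which is a decrease of 44.9%. Fasn ranked 1466 of 14379 genes by p-value in this comparison. The call was lost without F4MKO liver 1 (log2 fold change -0.74, adjusted p = 0.0552 in edgeR) or without F4MKO + FSTL1 liver 2 (-0.80, adjusted p = 0.0592). Without F4MKO + FSTL1 liver 1, the liver with few Irf4 counts, it held at -1.07 (adjusted p = 0.00892 in edgeR). F4MKO did not differ detectably from Flox for Fasn (log2 fold change 0.18, 95% interval -0.26 to 0.62).

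Acaca encodes acetyl-CoA carboxylase 1, which supplies cytosolic malonyl-CoA for fatty acid synthesis. It stood at 119, 109 and 130 CPM in Flox, 143, 125 and 105 CPM in F4MKO, and 96, 86.7 and 82.8 CPM in F4MKO + FSTL1. The F4MKO + FSTL1 livers again lay below all others. Against F4MKO the log2 fold change was -0.49 ± 0.12 (SE), with a 95% interval from -0.76 to -0.22 and an adjusted p of 0.0177 in edgeR. The decrease of 28.8% did not reach the fold threshold. The adjusted p rose to 0.073 without F4MKO liver 1, to 0.07 without F4MKO + FSTL1 liver 2 and to 0.0554 without F4MKO + FSTL1 liver 3, in edgeR. Without F4MKO liver 3 the change was -0.60 and Acaca was called (adjusted p = 0.00852 in edgeR).

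Acacb, the gene of acetyl-CoA carboxylase 2 at the mitochondrial surface, whose malonyl-CoA restrains fatty acid oxidation, passed neither threshold. Its values were 93.7, 67.1 and 66.3 CPM in Flox, 72.7, 93 and 70.3 CPM in F4MKO, and 88.3, 77.4 and 56.7 CPM in F4MKO + FSTL1. The groups overlapped throughout. The log2 fold change of F4MKO + FSTL1 against F4MKO was -0.09, with a 95% interval from -0.49 to 0.32, so a decrease nearly as large as that of Acaca is within the interval.

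Acly encodes ATP citrate lyase, which makes cytosolic acetyl-CoA from citrate. Its values were 106, 95 and 103 CPM in Flox, 91.1, 110 and 97.7 CPM in F4MKO, and 86.6, 69.4 and 69.6 CPM in F4MKO + FSTL1. Flox and F4MKO livers interleaved, and all F4MKO + FSTL1 livers were lower. Acly fell by 24.5% in F4MKO + FSTL1 against F4MKO, with a log2 fold change of -0.41 ± 0.11 (SE), a 95% interval from -0.66 to -0.15 and an adjusted p of 0.0286 in edgeR. It no longer passed without F4MKO liver 2 (adjusted p = 0.107), F4MKO + FSTL1 liver 2 (0.118) or F4MKO + FSTL1 liver 3 (0.0928) in edgeR, with log2 fold changes of -0.33, -0.35 and -0.35.

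Me1 encodes malic enzyme 1, a cytosolic source of NADPH. It reached 487 CPM in Flox liver 1 and lay between 258 and 345 CPM in the other livers of the series. That single liver sets the spread of the Flox group. Its log2 fold change was -0.30 in F4MKO against Flox (95% interval -0.68 to 0.08) and -0.05 in F4MKO + FSTL1 against F4MKO (-0.43 to 0.33). Without Flox liver 1 the first of these was -0.06.

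The genes of chain elongation and desaturation lay lower in F4MKO + FSTL1 but did not pass. Elovl6, which extends palmitate to stearate, had 69.2, 62.1 and 73.1 CPM in Flox, 84.3, 77.1 and 64 CPM in F4MKO, and 76.9, 61 and 47 CPM in F4MKO + FSTL1. The F4MKO and F4MKO + FSTL1 groups overlapped through F4MKO + FSTL1 liver 1. Its log2 fold change was -0.29 (95% interval -0.64 to 0.07, adjusted p = 0.235 in edgeR). Scd1 had 18921, 15268 and 12396 CPM in Flox, 17459, 20826 and 16365 CPM in F4MKO, and 18615, 14397 and 12727 CPM in F4MKO + FSTL1. Its log2 fold change was -0.26 (95% interval -0.69 to 0.18, adjusted p = 0.384 in edgeR), with overlapping groups. Scd1 has close paralogs, among them Scd2, and how reads shared between them were counted is not given in the sources used here.

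Neither transcription factor gene passed a threshold. Srebf1 had 293, 362 and 283 CPM in Flox, 244, 326 and 331 CPM in F4MKO, and 375, 334 and 299 CPM in F4MKO + FSTL1. Its log2 fold change in F4MKO + FSTL1 against F4MKO was 0.16, with a 95% interval from -0.17 to 0.49. Mlxipl had 462, 484 and 443 CPM in Flox, 388, 479 and 306 CPM in F4MKO, and 487, 617 and 379 CPM in F4MKO + FSTL1. Its log2 fold change was 0.34 (95% interval -0.08 to 0.75, adjusted p = 0.224 in edgeR). Gene counts do not separate the SREBP-1a and SREBP-1c transcripts of Srebf1 or the isoforms of Mlxipl, and RNA levels do not measure cleaved SREBP-1 or ChREBP in the nucleus.

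Thrsp, which encodes the small lipogenic protein Spot 14, varied most between livers. It had 86.2, 209 and 197 CPM in Flox, 97.5, 141 and 157 CPM in F4MKO, and 258, 123 and 170 CPM in F4MKO + FSTL1. Its highest liver was 3-fold above its lowest, and the coefficient of variation within groups was 23.2% to 41.2%. The log2 fold change of F4MKO + FSTL1 against F4MKO was 0.48, with a 95% interval from -0.24 to 1.21, so neither a rise nor a small fall could be told at this spread. Without F4MKO + FSTL1 liver 1, its highest liver and the one with few Irf4 counts, the value was 0.16, and without F4MKO liver 1 it was 0.30.

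**Figure D3:**
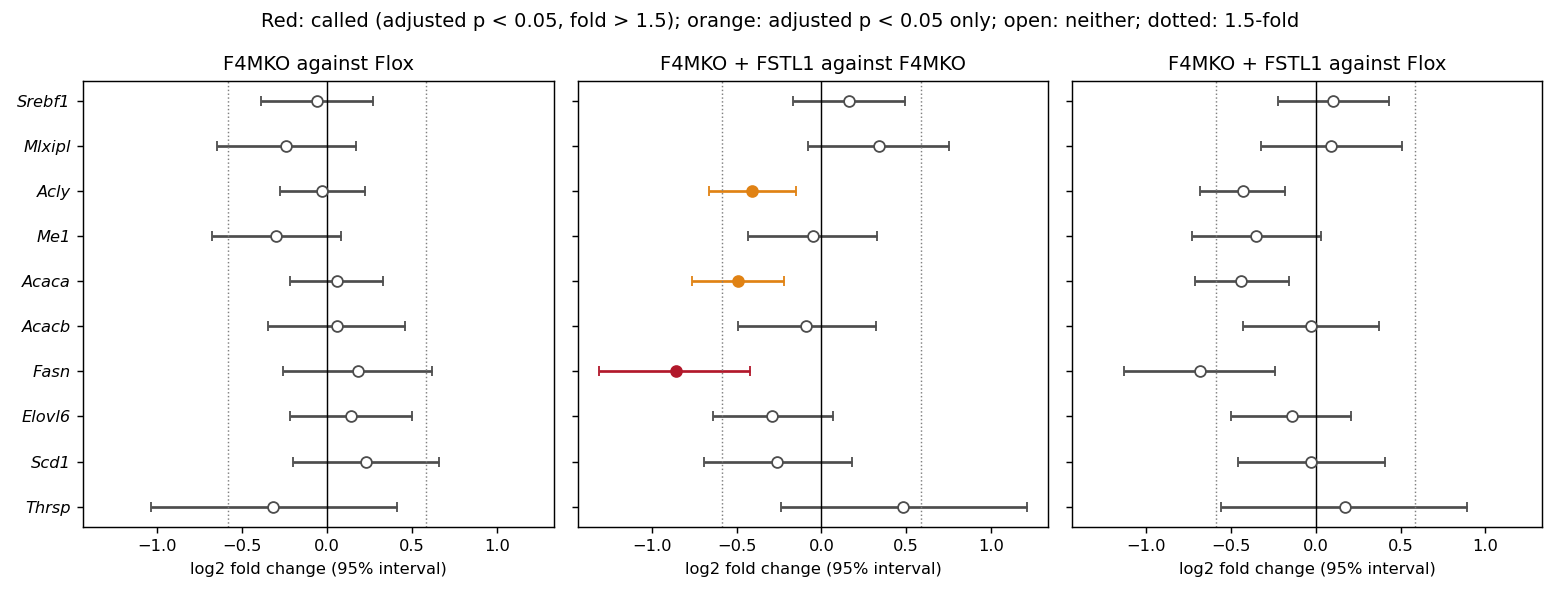
log2 fold change of each gene (points) with its 95% interval (bars) in the 3 comparisons, from the fit of all 9 libraries; dotted lines mark a fold change of 1.5. Fasn at -0.86, Acaca at -0.49 and Acly at -0.41 are the filled points, all in F4MKO + FSTL1 against F4MKO.

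Set against Flox, the F4MKO + FSTL1 livers gave no called lipogenic gene, 0 of 10, beside 0.00695% of all tested genes (1 gene). Fasn, Acly and Acaca still lay below every Flox liver, 3 of 10 genes, beside 18.2% of all tested genes whose groups did not overlap. These were the 3 of 10 with an unadjusted p under 0.05, beside 13.4% of all tested genes. DESeq2 called Fasn alone, 1 of 10, and 284 of all genes (2.0% of those it tested), where edgeR called 1. The log2 fold changes were -0.68 ± 0.20 (SE, adjusted p = 0.181 in edgeR) for Fasn, -0.43 ± 0.11 (adjusted p = 0.149) for Acly and -0.44 ± 0.12 (adjusted p = 0.168) for Acaca. Fasn passed in DESeq2 (-0.67, adjusted p = 0.0432) and in edgeR without a filter on low counts (-0.68, adjusted p = 0.0296). Both comparisons of the F4MKO + FSTL1 livers share those 3 libraries. For these 3 genes F4MKO lay within 0.18 of Flox on the log2 scale, at 0.18 for Fasn, 0.06 for Acaca and -0.03 for Acly.

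The 10 genes together took 2.04%, 1.78% and 1.41% of all counts in the Flox livers. They took 2.26%, 2.36% and 1.87% in the F4MKO livers, and 1.93%, 1.55% and 1.33% in the F4MKO + FSTL1 livers. Scd1 alone held 86.4% to 90.7% of these counts, so the sum is nearly that of Scd1. Without Scd1 the other 9 genes took 0.205% ± 0.012 (SD, n = 3) in Flox, 0.209% ± 0.021 in F4MKO and 0.174% ± 0.0209 in F4MKO + FSTL1. The liver numbered 3 had the lowest share in every group, and it had the lowest Fasn, Scd1, Acacb and Mlxipl of its group in all 3 groups. The labels do not say what a number marks. Without the livers numbered 3, Fasn was again the 1 gene of 10 called in F4MKO + FSTL1 against F4MKO (log2 fold change -0.91, adjusted p = 0.0151 in edgeR).

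**Figure D4:**
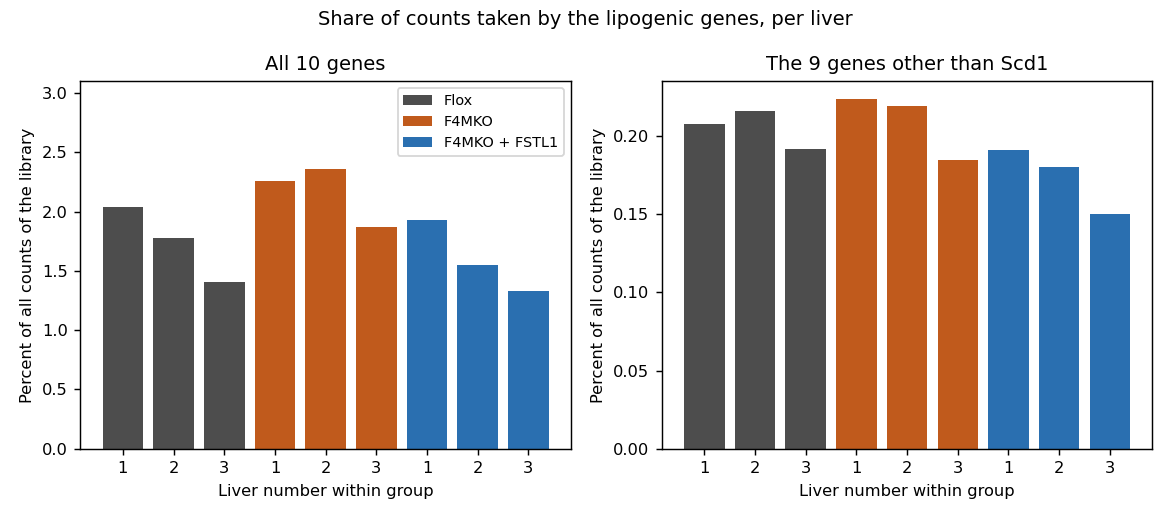
Percent of all counts of each library taken by the 10 lipogenic genes (left) and by the 9 without Scd1 (right), 1 bar per liver, coloured by group, axes from 0. The left bars run from 1.33% to 2.36% and the right bars from 0.15% to 0.224%.

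Genes around the pathway were read from a list of 80, grouped by role, all of which were tested. With FSTL1, against F4MKO, 7 of 80 were called, with 2 higher and 5 lower, and 17 passed the adjusted p alone, with 11 higher and 6 lower. These shares of 8.75% and 21.2% stand beside 14.4% and 20.9% of all tested genes, and the difference was not tested. The median log2 fold change of the list was 0.14, beside 0.01 for all tested genes. In F4MKO against Flox, 2 of 80 were called, beside 0.271% of all tested genes. In F4MKO + FSTL1 against Flox it was 0 of 80, beside 0.00695%. In that last comparison 10 of 80 had an unadjusted p under 0.05, beside 13.4% of all tested genes. DESeq2 called 2 of 80 there, Pdk4 and Scd2, beside 2.0% of all genes it tested.

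Of the 14 genes that control SREBP-1c and ChREBP, none was called in F4MKO + FSTL1 against F4MKO (0 of 14), and 3 passed the adjusted p alone, all higher. Scap, whose product escorts SREBP from the endoplasmic reticulum, was higher by 0.42 ± 0.09 on the log2 scale (adjusted p = 0.011 in edgeR). Usf2, a factor that binds E-boxes, was higher by 0.41 ± 0.10 (adjusted p = 0.0181 in edgeR). Of the 15 genes of insulin and energy sensing, 0 were called and 2 passed the adjusted p alone, both higher. These were Stk11, the gene of the AMPK-activating kinase LKB1 (0.43 ± 0.11, adjusted p = 0.0162), and Insr, the insulin receptor gene (0.33 ± 0.09, adjusted p = 0.0231 in edgeR). None of the 4 genes of enzyme modification and malonyl-CoA breakdown was called, and 1 passed the adjusted p alone. Mlycd, whose product degrades malonyl-CoA, was higher by 0.50 ± 0.10 (adjusted p = 0.00665 in edgeR). Aasdhppt, whose product attaches the phosphopantetheine arm of fatty acid synthase, had 0.19 ± 0.09 (adjusted p = 0.177). All of these changes were below the fold threshold. Of all tested genes, 14.4% were called in this comparison and 20.9% passed the adjusted p alone.

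Sugar entry and glycolysis had 2 of 12 genes called in F4MKO + FSTL1 against F4MKO, beside 14.4% of all tested genes. Slc2a5, the fructose transporter GLUT5, had 17, 20 and 32 counts in Flox, 7, 3 and 5 counts in F4MKO, and 24, 25 and 17 counts in F4MKO + FSTL1. The F4MKO livers lay below all others, at few counts. Its log2 fold change was -2.33 ± 0.39 in F4MKO against Flox (adjusted p = 0.0404 in edgeR) and 2.44 ± 0.39 in F4MKO + FSTL1 against F4MKO (adjusted p = 0.00252). The first of these calls was lost when any 1 of the 9 libraries was left out. It was also lost without the livers numbered 3 and when only the 6 libraries compared were fitted. All genes called in F4MKO against Flox numbered 0 to 100 with single livers left out, beside 39 in the main fit. They numbered 0 without Flox liver 1, 2 or 3 or F4MKO liver 1. Pdk4, a kinase that closes pyruvate dehydrogenase and so the path from sugar to acetyl-CoA, fell by 1.62 on the log2 scale with FSTL1 (adjusted p = 0.00189 in edgeR). It had 9.36, 9.59 and 6.3 CPM in Flox, 10.2, 17.8 and 11.5 CPM in F4MKO, and 3.92, 3.7 and 5.22 CPM in F4MKO + FSTL1, with no overlap.

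Supply of acetyl-CoA and NADPH had 1 of 11 genes called in F4MKO + FSTL1 against F4MKO, beside 14.4% of all tested genes. This was G6pdx, the first enzyme of the pentose phosphate route to NADPH. It had 8.11, 7.99 and 8.96 CPM in Flox, 12.6, 9.93 and 10.4 CPM in F4MKO, and 6.68, 6.73 and 6.69 CPM in F4MKO + FSTL1. The values of the F4MKO + FSTL1 livers were nearly alike, and the log2 fold change was -0.71 ± 0.13 (adjusted p = 0.00372 in edgeR). Among other elongases and desaturases, 2 of 11 genes were called, both lower, beside 11.2% of all tested genes called lower. Scd2, the desaturase paralog of Scd1, had 10.8, 10.2 and 12 CPM in Flox, 25.9, 24.8 and 17.9 CPM in F4MKO, and 7.15, 6.1 and 6.95 CPM in F4MKO + FSTL1. The 3 groups did not overlap. It rose in F4MKO against Flox (1.06 ± 0.15, adjusted p = 0.0351 in edgeR) and fell in F4MKO + FSTL1 against F4MKO (-1.76 ± 0.15, adjusted p = 0.00034). The rise was called in 11 of 16 alternatives. It was no longer called without any 1 of the 3 Flox livers, without F4MKO liver 1, or when only the 6 libraries compared were fitted. With any of those 4 livers left out, 0 of all tested genes were called in F4MKO against Flox. With the 6 libraries 11 were called, beside 39 in the main fit. Elovl7 had 12, 13 and 10 counts in Flox, 89, 62 and 31 counts in F4MKO, and 14, 4 and 9 counts in F4MKO + FSTL1. Its log2 fold change in F4MKO + FSTL1 against F4MKO was -2.39 ± 0.43 (adjusted p = 0.00405 in edgeR). In F4MKO against Flox it was 2.20 ± 0.42 (adjusted p = 0.0583 in edgeR), which edgeR did not call and DESeq2 did. In F4MKO + FSTL1 against Flox it was -0.20 ± 0.51.

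Acyl-CoA use and triglyceride assembly had 2 of 13 genes called, beside 14.4% of all tested genes. They went in opposite directions, and both encode long-chain acyl-CoA synthetases. Acsl1 rose from 665, 948 and 898 CPM in F4MKO to 1299, 1644 and 1257 CPM in F4MKO + FSTL1 (log2 fold change 0.74 ± 0.17, adjusted p = 0.0115 in edgeR). Acsl1 had 1303, 973 and 1082 CPM in Flox. Its call was lost without F4MKO + FSTL1 liver 2 and without a composition factor in the scaling. Acsl4 fell from 73.8, 60.2 and 62.9 CPM to 44.9, 40.9 and 42.1 CPM (-0.62 ± 0.12, adjusted p = 0.00561 in edgeR), and its call was lost without F4MKO liver 1. In Flox it had 63.1, 50.6 and 46.6 CPM. The other 5 calls of this comparison held in all 16 alternatives.

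**Figure D5:**
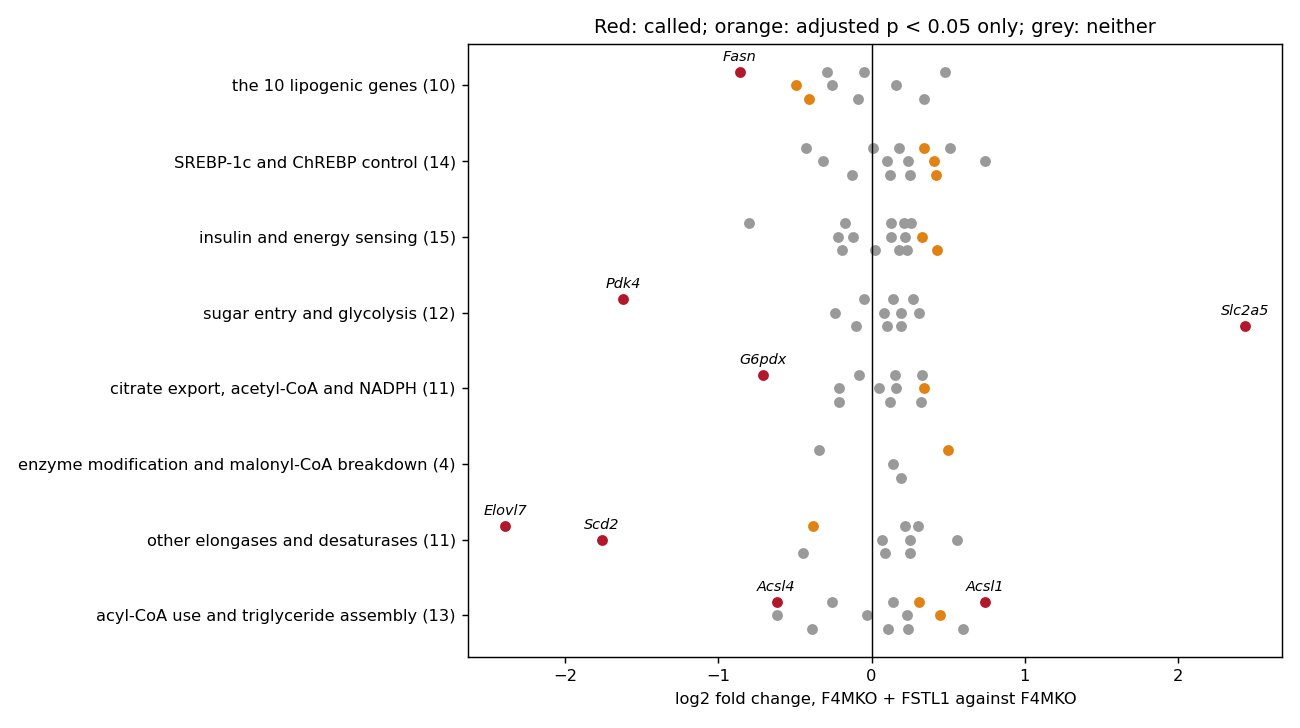
log2 fold change in F4MKO + FSTL1 against F4MKO for the 10 lipogenic genes and the 80 other pathway genes, 1 point per gene, by role (number of genes in brackets). Called genes are red and named, from Elovl7 at -2.39 to Slc2a5 at 2.44.

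Markers of other cell types also differed in F4MKO + FSTL1 against F4MKO. Of all tested genes, 14.4% were called in that comparison and 11.2% called lower. Whole liver was sampled, so fewer cells of a type and less RNA per cell cannot be told apart. The summed level of 10 stellate cell and myofibroblast markers was 560 to 722 CPM in F4MKO and 269 to 376 CPM in F4MKO + FSTL1, with 7 of 10 called lower. The sum of 10 macrophage markers was 520 to 625 CPM in F4MKO and 256 to 402 CPM in F4MKO + FSTL1, with 7 of 10 called lower. For 6 bile duct markers it was 161 to 431 and 36.1 to 54.1 CPM, with 4 of the 5 tested called lower. For 8 lymphocyte markers it was 23.8 to 33.7 and 13.4 to 21.7 CPM, with 1 of the 7 tested called lower. Hepatocyte markers overlapped between these groups, at 74507 to 109955 and 89127 to 109118 CPM, with 2 of 9 called higher and 1 lower. Endothelial markers also overlapped, at 167 to 218 and 192 to 240 CPM, with 0 of 8 called. The part of these cell types in the lower Fasn, Acaca and Acly, and in Scd2, Elovl7, G6pdx and Acsl4, was not tested. In F4MKO against Flox, where Scd2 was called higher, the bile duct markers summed to 161 to 431 against 50.7 to 89 CPM, with 2 of the 5 tested called higher (Epcam and Spp1). The stellate cell markers summed to 560 to 722 against 415 to 483 CPM there, with 0 of 10 called, 5 of 10 below 0.05 on the unadjusted p, and all 10 log2 fold changes above 0. The macrophage markers overlapped there, at 520 to 625 against 437 to 707 CPM. Of these 10, 1 was called higher, 4 were below 0.05 on the unadjusted p, and 7 had log2 fold changes above 0. Of all tested genes, 0.271% were called there and 16.9% had an unadjusted p under 0.05. When the F4MKO + FSTL1 livers were set against Flox, 0 of 10 macrophage markers were called, 9 of 10 had an unadjusted p under 0.05, and they summed to 256 to 402 against 437 to 707 CPM. The stellate cell markers summed to 269 to 376 against 415 to 483 CPM, with 0 of 10 called and 6 of 10 below 0.05 on the unadjusted p. Of all tested genes, 0.00695% were called against Flox and 13.4% had an unadjusted p under 0.05. The part of these markers in the results of either comparison was not tested.

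Adipocytes make fatty acids too. Their 10 markers summed to 40.6 to 49.7 CPM in Flox, 31.1 to 45.9 CPM in F4MKO and 62.3 to 125 CPM in F4MKO + FSTL1. Of the 5 tested, 4 were called higher in F4MKO + FSTL1 against F4MKO, beside 14.4% of all tested genes called. Cfd, the gene of adipsin, had 80, 15 and 8 counts in Flox, 10, 2 and 10 counts in F4MKO, and 1399, 882 and 89 counts in F4MKO + FSTL1. In the F4MKO + FSTL1 livers Cfd alone gave 65.4, 42.4 and 4.65 CPM of the adipocyte sum. The defining markers Adipoq, Plin1, Lep, Retn and Lgals12 had at most 4 counts in any library. The summed level of 12 circadian clock genes was 346 to 483 CPM in F4MKO and 547 to 652 CPM in F4MKO + FSTL1. Of the 12, 4 were called higher and 2 lower, beside 14.4% of all tested genes called. In Flox the clock sum was 350 to 480 CPM. Against Flox 0 of 12 were called and 8 of 12 had an unadjusted p under 0.05, beside 13.4% of all tested genes. The lipogenic program follows feeding and time of day, the time of collection is not given in the sources used here, and the part of the clock genes in these results was not tested.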

How the data were processed

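RNA-seq counts of 9 mouse livers were used, 3 per group. Per the labels and the study's methods, the authors trimmed 150 bp read pairs with Trim Galore 0.6.7, mapped them to mm10 with HISAT2 2.2.1 and counted them on genes with featureCounts 2.0.1, and they deposited raw counts. The annotation, the use of strand and the handling of reads shared by several genes are not given in the sources used here.

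Counts were tested with edgeR 4.0.16 (quasi-likelihood, TMM, filterByExpr with minimum count 10 and minimum total 15) in R 4.3.3, in 1 fit of all 9 libraries. CPM are TMM-scaled. TPM were computed from GENCODE exon lengths, matched by symbol for 19335 genes. Alternatives were DESeq2 1.42.0 and other choices named in the closing section. The 10 genes, the lists and the tests were chosen with earlier results of these data known. Named genes were all 10 members and, of each role in the pathway list, up to 4 called genes or else the 2 with the smallest p in F4MKO + FSTL1 against F4MKO, plus markers at 0 or highest, Adipoq, Cfd, Alb and Irf4. The labels give 3 liver samples per group and do not say that each came from its own mouse, so p-values measure the spread between these samples. The fit was tested on simulated data.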

Additional observations from a re-analysis of the deposited data

How the results depend on the processing

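The 30 log2 fold changes of the 10 genes were recomputed under 16 alternatives each, 480 values, of which 445 kept their direction and their side of the threshold. The number of the 10 genes called in F4MKO against Flox was 0 in all alternatives. In F4MKO + FSTL1 against F4MKO it was 1 with DESeq2, DESeq2's size factors, without the low-count filter, with the 6 libraries of both groups alone, with the replicate block and without the livers numbered 3 (an alternative chosen after seeing the data), and Fasn was the gene each time. It was 3 (Acly, Acaca and Fasn) with the adjusted p alone and without a composition factor, a scaling that took the median of all genes from 0.01 to -0.18. It ranged from 0 to 2 with single livers left out. In F4MKO + FSTL1 against Flox it was 1 with DESeq2 or no filter on low counts and otherwise 0. Some fits called few or no genes in all, and there a count of 0 was nearly fixed. In F4MKO against Flox all genes called numbered 0 without Flox liver 1, 2 or 3 or F4MKO liver 1. They numbered 3 without the livers numbered 3 and 11 with only the 6 libraries compared. In F4MKO + FSTL1 against Flox they numbered 284 with DESeq2 and 379 without the filter, but 0 with the 6 libraries. With single livers left out they ranged from 0 to 101. Without a composition factor the median of all genes in F4MKO against Flox moved to 0.11, and Fasn, Acaca and Acly in F4MKO + FSTL1 against F4MKO stood at -1.07, -0.70 and -0.60. The cause was not tested for any of these.

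Signs turned only for uncalled values near 0. In F4MKO against Flox, Srebf1 turned to 0.04 and Acly to 0.09 without a composition factor, and Acly to 0.01 without the livers numbered 3. With single livers left out, Srebf1 ranged from -0.13 to 0.07, Acly from -0.11 to 0.04, Acaca from -0.06 to 0.16 and Acacb from -0.08 to 0.24. Between F4MKO + FSTL1 and F4MKO, Srebf1 turned to -0.02 without a composition factor, and with single livers left out Me1 ranged from -0.12 to 0.05 and Acacb from -0.23 to 0.08. Between F4MKO + FSTL1 and Flox, Acacb turned to 0.06 and Elovl6 to 0.08 without the livers numbered 3, and with single livers left out Mlxipl ranged from -0.09 to 0.26, Acacb from -0.17 to 0.15, Elovl6 from -0.33 to 0.02, Scd1 from -0.19 to 0.14 and Thrsp from -0.16 to 0.39.

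The labels do not say what a library's number marks, and not every same-numbered pair correlated above 0.1, so the libraries were not treated as paired. Their deviations correlated at 0.0422 to 0.169, 0.0919 to 0.304 and -0.0985 to 0.206 in the 3 comparisons, and in the first 2 every F4MKO or F4MKO + FSTL1 library was closest to its own number. On the second principal component the libraries numbered 3 stood at 16.8 to 24.2 and all others at 2.4 or below. With the replicate block, Fasn in F4MKO + FSTL1 against F4MKO was at -0.86 (adjusted p = 0.00237 in edgeR), the calls among the 10 genes were 0, 1 and 0, and all genes called numbered 134, 2170 and 15, beside 39, 2070 and 1. Of the 80 pathway genes, 0 to 5, 6 to 10 and 0 to 2 were called over the alternatives (chosen after seeing the data). With the most abundant 10 genes, other than lipogenic ones, left out of the denominator, the share of the 10 lipogenic genes was 2.13% in Flox, 2.65% in F4MKO and 1.96% in F4MKO + FSTL1. Genes with symbols starting in mt- were to be left out too. They held 0% of the counts in every library, so this step removed nothing. With 3 livers a group, an exact permutation test of a single gene cannot go below p = 0.1.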
